A study of Mus musculus with 12 samples.

Results

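Cirbp and Rbm3 encode cold-inducible RNA-binding proteins, and their 2 rows of the 22609 gene symbols in the deposited counts were followed through sorted sensory neurons of the tongue. Both genes were chosen on their read counts in these same libraries, so their levels and group differences are a description, with no test. The data came from trigeminal ganglion (TG) neurons, the sensory neurons of the face and mouth, of mice of both sexes on the Balb/c athymic nude background, which lack T cells. The 4 groups, with 3 libraries in each, were normal males (MN), males with a tongue tumor (MT), normal females (FN) and females with a tongue tumor (FT). Tumor groups received 350000 HSC3 cells, an established human line of oral squamous carcinoma, in the tongue, and TGs of all groups were taken on day 15. The labels state that normal mice received no cells, whereas the study's methods state that they received human normal oral keratinocytes, so it was not settled what the tongue of a normal mouse had received. On day 13 the fluorescent tracer WGA-488, taken up by nerve endings and transported back along the axon, was injected in the tongue, and labelled cells were flow-sorted after warm enzymatic digestion of the TGs, which all groups shared. A normal library pooled 4 TGs of 2 mice and a tumor library pooled 4 ipsilateral TGs of 4 mice, so each library is a pool and no library is a single animal. The mice were young adults by the study's methods, and the labels give no age.

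Cirbp and Rbm3 belong to the small family of proteins with 1 RNA recognition motif and a tail rich in glycine and arginine, and both bind the untranslated ends and other parts of messenger RNAs to steady them or help their translation. Their messages are known to accumulate when cells are cooled mildly and to decline with warming, chiefly through temperature-dependent splicing and message stability, and both follow the daily rhythm of body temperature. Rbm3 is known in neurons for maintaining synapses after cooling, and Cirbp for binding clock transcripts, for moving into stress granules and, when released from cells, for acting on the receptor Tlr4. None of these roles was measured here.

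Cirbp (ENSMUSG00000045193.7) lies on the plus strand of chromosome 10 at chr10:79628730-79635531 of the mouse build mm9, with 7 annotated transcripts and 2604 bases of combined exons in the GENCODE M1 annotation. Rbm3 (ENSMUSG00000031167.8) lies on the minus strand at chrX:7716101-7723006, with 12 annotated transcripts and 4698 bases of combined exons. None of the 2261 exonic stretches of 50 bases of Cirbp was found elsewhere in the genome, where the read length was also 50 bases. Of the 4404 such stretches of Rbm3, 817 (18.6%) were found elsewhere, so some of its reads could not be placed and its count may run low. The matches of these stretches lay on 20 chromosomes, a number that includes the X chromosome through their own place in Rbm3. An antisense gene, 2900002K06Rik, overlaps Rbm3 by 452 bases with overlapping exons. The strand setting of the counting is not given in the sources used here. Reads of that stretch cannot be divided here between Rbm3 and 2900002K06Rik. Its level ran from 4.59 to 8.40 CPM in the male libraries and from 1.74 to 11.5 CPM in the female libraries, with the lowest value in FT replicate 2.

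The start of Cirbp is shown because cold-inducible transcription of this gene has been tied to an element in its promoter, and because Sp1, the factor known for that element, is among the genes described later. The RefSeq window of build GRCm38.p6 runs from 250 bases before the start of the gene to 50 bases after it, at chr10:80167589-80167888 on the plus strand. Capitals mark the cold-responsive element TCCCCGCC, the CCAAT box and the GC box GGGCGG on either strand, and no 2 of the marked matches overlap.
Cirbp promoter: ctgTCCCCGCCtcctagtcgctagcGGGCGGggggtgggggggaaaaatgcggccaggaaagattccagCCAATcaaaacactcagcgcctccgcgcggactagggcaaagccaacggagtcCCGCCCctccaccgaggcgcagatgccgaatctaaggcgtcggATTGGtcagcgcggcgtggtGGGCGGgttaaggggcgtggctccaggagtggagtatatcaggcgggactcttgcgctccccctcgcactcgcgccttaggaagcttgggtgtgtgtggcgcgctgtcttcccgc
The element TCCCCGCC begins at position -247 from the start on the plus strand, and 5.38% of the 32851 RefSeq promoter windows hold it on either strand. CCAAT begins at -181 and, on the minus strand, at -85, and 37.4% of windows hold it. GGGCGG begins at -225, at -128 on the minus strand and at -65, and 35.7% of windows hold it. The TATA box TATAAA, held by 13.6% of windows, and the E-box CACGTG, held by 7.15%, were not found in these letters. A second annotated Cirbp start, at chr10:80167921-80168220, held 4 GC boxes and none of the other motifs.

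Between 4592891 and 8922011 reads of a library fell on genes, and CPM (counts scaled to a fixed total of such reads) set the libraries on 1 scale. All 20 sensory neuron markers fixed for the check were counted and summed to 23635 to 34515 CPM per library. These sums do not measure the share of neurons among the sorted cells. A set of 3 female libraries stood apart from the rest, namely FN replicate 2, FT replicate 2 and FT replicate 3. Their reads mapped to several places made up 56.0%, 68.4% and 52.6% of all reads, against 43.0% to 45.5% in the other 9 libraries. Spearman correlation across genes was at least 0.971 among those 9 and with any of them was at most 0.850 in FN replicate 2, at most 0.811 in FT replicate 2 and at most 0.908 in FT replicate 3. Group levels are given with and without FN replicate 2 and FT replicate 2, and the fitted differences also without all 3, which leaves 1 FT library. No separate batch label was given, and because nothing ties the pooled mice of 1 library to another, the spread between replicates is that between pools.

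Cirbp was at 68.9, 67.6 and 69.3 CPM in MN replicates 1 to 3. In MT it was at 118, 123 and 111 CPM. Every MT library thus lay above every MN library, and the MN libraries hardly differed from each other. The FN libraries held 119, 327 and 107 CPM. The FT libraries held 130, 96.9 and 138 CPM. All 9 libraries outside MN were above the highest MN value, and within the female groups FN replicate 2 was far above its 2 partners. The means were 68.6 CPM ± 0.90 in MN, 117 CPM ± 5.96 in MT, 184 CPM ± 123 in FN and 122 CPM ± 21.8 in FT (SD, n = 3 each). Without FN replicate 2 and FT replicate 2 the female means were 113 CPM ± 8.43 in FN and 134 CPM ± 5.36 in FT (SD, n = 2 each).

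Rbm3 had fewer reads than Cirbp in every library. It was at 13.4, 11.4 and 8.84 CPM in MN replicates 1 to 3 and at 17.7, 16.9 and 19.4 CPM in MT. The ranges of MN and MT did not overlap. The FN libraries held 19.6, 28.2 and 17.1 CPM. The FT libraries held 15.6, 1.52 and 21.3 CPM. The other FT libraries lay above all of MN, whereas FT replicate 2 lay below all of it with 7 reads, whose exact Poisson 95% interval is 0.613 to 3.14 CPM and covers counting error only. The means were 11.2 CPM ± 2.27 in MN, 18.0 CPM ± 1.24 in MT, 21.6 CPM ± 5.80 in FN and 12.8 CPM ± 10.2 in FT (SD, n = 3 each). Without FN replicate 2 and FT replicate 2 they were 18.4 CPM ± 1.76 in FN and 18.5 CPM ± 4.03 in FT (SD, n = 2 each). Since the libraries are RNA of pooled sorted cells, fewer cells that hold a message and less of the message per cell cannot be told apart.

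**Figure D1:**
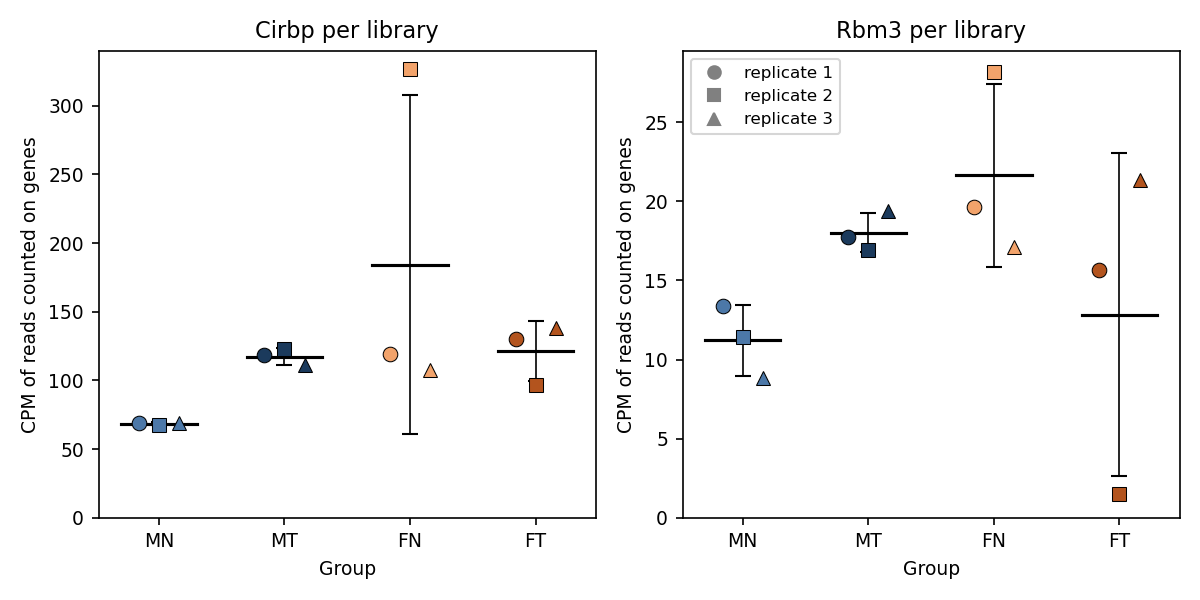
Cirbp (left) and Rbm3 (right) in CPM of reads counted on genes for each of the 12 libraries, by group, with symbols for the replicate number, a bar for the group mean and whiskers for 1 SD (n = 3). MN is low and tight for Cirbp at 67.6 to 69.3 CPM, FN replicate 2 stands high at 327 CPM, and FT replicate 2 stands low for Rbm3 at 1.52 CPM.

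Ordered by mean Cirbp level, the groups ran MN, MT, FT and FN. The neighbours MT and FT, at 117 and 122 CPM, differed by less than the SD of FT, and FT and FN differed by less than the SD of FN. Without FN replicate 2 and FT replicate 2 the order was MN, FN, MT and FT, with FN and MT within 1 SD of each other and FT above both by more than 1 SD. Ordered by mean Rbm3 level, the groups ran MN, FT, MT and FN, in which MN and FT, FT and MT, and MT and FN each differed by less than the larger SD of the pair. Without those 2 libraries MT, FN and FT had Rbm3 means of 18.0 to 18.5 CPM, and MN alone lay lower. With FT replicate 3 left out too, FT was represented by replicate 1 alone, at 130 CPM for Cirbp and 15.6 CPM for Rbm3. In both genes MN was the lowest group on either set of libraries.

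Against MN, the mean Cirbp level was 1.71-fold higher in MT and the mean Rbm3 level was 1.61-fold higher. Both genes were thus placed among the 803 of 13835 genes tested (5.8%) whose MT libraries all lay above the MN libraries, and since that contrast is among those they were chosen on, nothing is read from it. The edgeR fit of all 12 libraries gave log2 fold changes of 0.79 (SE 0.45) for Cirbp and 0.70 (SE 0.58) for Rbm3, where the median of all genes tested was 0.007. In the fit of the 9 libraries the changes were the same to 2 decimals, with an SE of 0.10 for Cirbp and 0.18 for Rbm3, and in a fit of the 6 male libraries the SEs were 0.10 and 0.19. These fits all held the same 6 male libraries, so the male fold changes could hardly differ between them and nothing is read from that. Their errors shrank by over 3 times once the libraries that stood apart no longer entered the estimate of the spread.

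The normal females were compared with the normal males as the sexes without tumor. Cirbp and Rbm3 were higher in all FN libraries than in any MN library, as were 1327 of the genes tested (9.59%). The ratio of means was 2.69 for Cirbp and 1.93 for Rbm3. Without FN replicate 2 the ratios were 1.65 and 1.64, close to those of MT over MN, with which this comparison shares the MN libraries. The log2 fold changes of FN versus MN were 1.64 (SE 0.46) for Cirbp and 1.10 (SE 0.58) for Rbm3 over 12 libraries, and 0.67 (SE 0.11) and 0.66 (SE 0.20) over 9.

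In females the tumor comparison rested on single libraries. The mean Cirbp level in FT was 0.660 of that in FN and the mean Rbm3 level was 0.593 of it. The fit of 12 libraries gave FT versus FN log2 fold changes of -0.65 for Cirbp (SE 0.45) and -0.81 for Rbm3 (SE 0.58). Of all genes tested, 528 (3.82%) had an unadjusted p under 0.05 in this comparison and none (0%) an adjusted p under 0.05 by edgeR, DESeq2 or limma-voom. The direction depended on the libraries kept. With FN replicate 2 alone left out, the changes were 0.30 for Cirbp and -0.39 for Rbm3. Without FN replicate 2 and FT replicate 2 they were 0.35 (SE 0.20) and 0.12 (SE 0.28), with ratios of means of 1.18 and 1.01. Without FT replicate 3 as well, which leaves FT replicate 1 alone in its group, they were 0.21 (SE 0.14) and -0.23 (SE 0.27), with ratios of 1.15 and 0.851.

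Over 12 libraries the FT and MT groups had close mean Cirbp levels, with a ratio of means of 1.04 and a log2 fold change of 0.19 (SE 0.45). The Cirbp ratio was 1.14 without FT replicate 2 and 1.11 with FT replicate 1 alone. For Rbm3 the FT mean was 0.712 of the MT mean, 1.03 times it without FT replicate 2, and 0.868 of it with FT replicate 1 alone. The female change minus the male change was -1.45 (SE 0.64) for Cirbp and -1.51 (SE 0.82) for Rbm3 on the log2 scale over 12 libraries. With FN replicate 2 and FT replicate 2 left out it was -0.45 (SE 0.26) and -0.58 (SE 0.36), and over the 9 libraries -0.58 (SE 0.18) and -0.93 (SE 0.33). This difference was not tested for these genes.

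**Figure D2:**
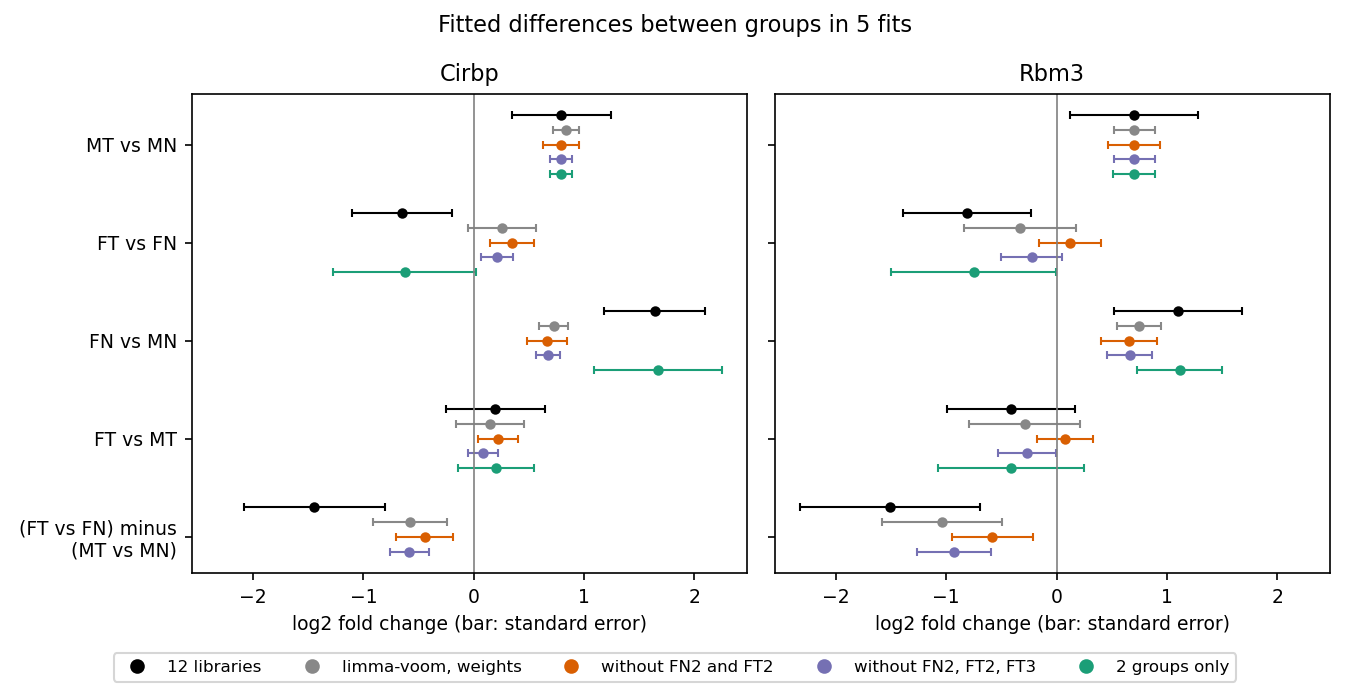
Fitted log2 fold changes of Cirbp (left) and Rbm3 (right) with their standard errors as bars, for 5 comparisons of groups and in up to 5 fits, coloured by fit. MT versus MN lies at 0.70 to 0.83 for both genes, in 5 fits that all hold the same 6 male libraries. FT versus FN of Cirbp lies at -0.65 over 12 libraries and at 0.35 without FN replicate 2 and FT replicate 2.

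The libraries that stood apart moved the 2 genes in different ways. FN replicate 2 held the highest level of both, at 2.94-fold the median of the other 11 libraries for Cirbp and 1.66-fold for Rbm3, while 15.3% of genes tested were highest in it. FT replicate 2 held the lowest Rbm3 level, 11.2-fold under the median of the other 11, while 32.6% of genes tested were lowest in it. Its Cirbp level was only 1.22-fold under the median and above all of MN. FT replicate 3 had 1.24-fold the median for Cirbp and 1.26-fold for Rbm3.

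Levels per length set the genes beside each other. In RPKM, which divides CPM by the exon length in kilobases, Cirbp stood above 85.5% to 91.9% of genes in the 9 libraries and above 96.0% in FN replicate 2. Rbm3 stood above 41.8% to 54.9% of genes in the 9 libraries, above 68.4% in FN replicate 2 and above 27.8% in FT replicate 2. The RPKM ratio of Cirbp to Rbm3 was 9.31, 10.7 and 14.2 in MN and 12.0, 13.1 and 10.3 in MT. The male groups overlapped in this ratio, so the proportion of the genes did not separate MN from MT. It was 10.96, 20.9 and 11.3 in FN and 15.0, 115 and 11.7 in FT, where FN replicate 2 and FT replicate 2 were the highest of all. A single annotated transcript of each gene has 1321 bases for Cirbp and 1338 bases for Rbm3. With these lengths in place of all exons, the ratio was 5.22 to 8.44 in the 9 libraries, so its size depends on the lengths used. In MT replicate 1, Rbm3 was at 13.3 RPKM by its single transcript, against 3.77 RPKM by all exons. The places among genes given above used all exons and were not computed on transcript lengths.

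**Figure D3:**
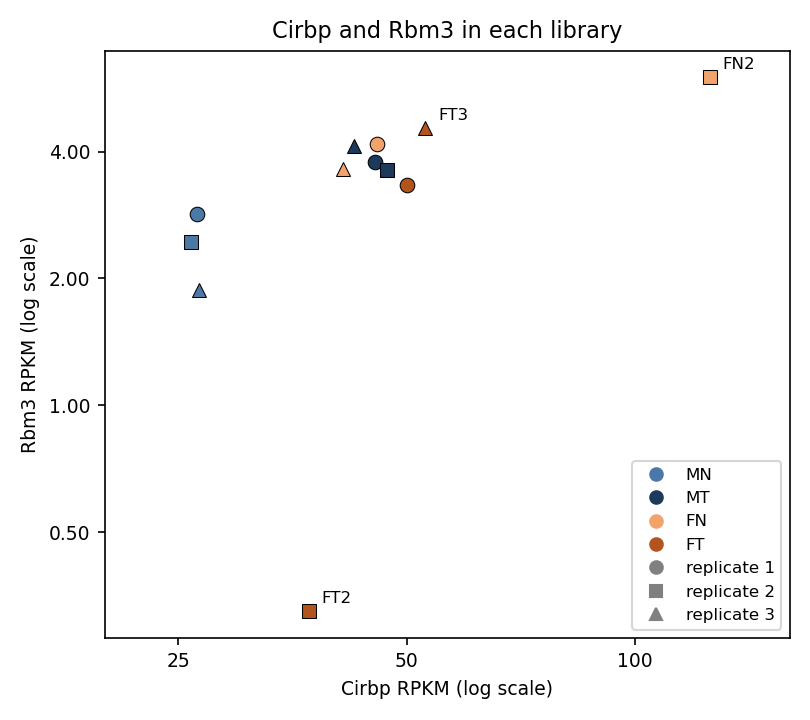
RPKM of Rbm3 (vertical, log scale) against RPKM of Cirbp (horizontal, log scale), 1 point for each of the 12 libraries, coloured by group with symbols for the replicate number and names for the 3 libraries that stood apart. The MN libraries lie together at low values of both, 7 libraries lie together at higher values, FN replicate 2 lies highest and FT replicate 2 lies far below in Rbm3 at 0.324 RPKM.

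Pearson's correlation of the genes across libraries depended on FT replicate 2, while the rank correlation did not. Pearson's r of their log2 CPM was 0.471 over 12 libraries (Spearman's rho 0.755), 0.880 over the 11 without FT replicate 2 (rho 0.736), 0.372 over the 11 without FN replicate 2 and 0.836 over the 9 (rho 0.517). The points share library depth and the step between MN and the other groups, so these values are a description. Among 9542 genes with a mean of at least 10 CPM, Rbm3 ranked 1902nd in likeness to Cirbp over 12 libraries and 97th over 9. Cirbp ranked 2641st in likeness to Rbm3 over 12 libraries and 44th over 9.

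The 5 genes most like Cirbp over 12 libraries were Ercc1, a subunit of a DNA repair endonuclease, at r = 0.952, Smc3, a cohesin subunit, at 0.933, the transcription factor gene Cebpd at 0.928, 2610524H06Rik at 0.928 and the exonuclease gene Trex1 at 0.924. Over 9 libraries they were AI506816 at 0.973, Atf4, a transcription factor of the integrated stress response, at 0.963, 2410006H16Rik at 0.950, Emp1 at 0.941 and again Ercc1 at 0.937. The 5 most like Rbm3 over 12 libraries were Sec22a, a vesicle trafficking gene, at 0.985, the ubiquitin ligase gene Rchy1 at 0.978, the death receptor gene Fas at 0.965, 1700029F09Rik at 0.964 and the retinol dehydrogenase gene Rdh13 at 0.964. Over 9 libraries they were Pcdhb9 at 0.964, Rnf114 at 0.952, Nucb2 at 0.937, Sec22a again at 0.937 and the spliceosome gene Bcas2 at 0.930. Thus 1 of the 5 names remained for each gene when the libraries that stood apart were left out, and of the 50 most like genes 9 remained for Cirbp and 3 for Rbm3.

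Genes tied to the pathway were taken from lists of regulators, receptors, targets and related proteins. Over the 12 libraries, 98 of the 109 listed genes were tested, of which 3 had an unadjusted p under 0.05 in MT versus MN, where 0.426% of all genes did, and 4 in FT versus FN, where 3.82% did. By edgeR none had an adjusted p under 0.05 in either comparison, as among all genes in MT versus MN (0%), where DESeq2 gave 2 such genes and limma-voom 47. By limma-voom 2 of the 98 did in MT versus MN, Hspa1a and Per1, and none did by DESeq2 or in FT versus FN.

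Among the regulators none of 6 had an unadjusted p under 0.05 in either comparison. The kinases Clk1 and Clk4, which phosphorylate splicing factors in a temperature-dependent way, had MT versus MN log2 fold changes of 0.39 (SE 0.55) and 0.25 (SE 0.43). Sp1, the factor named for the TCCCCGCC element, had -0.17 (SE 0.51) in MT versus MN and 0.84 (SE 0.51) in FT versus FN. Hnrnph1, a splicing regulator, Prmt1, which methylates arginines of RNA-binding proteins, and Tnpo1, which carries such proteins into the nucleus, had MT versus MN changes of 0.03, 0.07 and -0.29. No regulator had all MT libraries above MN, and Sp1 had all of them below, at 6.04 to 7.16 CPM against 7.17 to 7.87 CPM in MN, as did 7.32% of all genes tested.

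Of the genes that act upstream, Ntrk2, the BDNF receptor tied to Rbm3 induction, was at 158 CPM ± 20.9 in MN and 121 CPM ± 17.0 in MT (SD, n = 3), a log2 fold change of -0.37 (SE 0.36, unadjusted p = 0.318 in the edgeR fit of 12 libraries). In the edgeR fit of the 6 male libraries Ntrk2 had -0.37 (SE 0.13, unadjusted p = 0.014, adjusted p = 0.597). The warmth-sensing channel gene Trpv4 was at 2.18 CPM ± 0.92 in MN and 4.96 CPM ± 4.28 in MT (SD, n = 3), with MT replicate 3 at 9.75 CPM. Trpv3, another channel of warmth, reached at most 0.370 CPM in any library and was too low to test. The receptors for Cirbp outside the cell were low as well, since Tlr4 and its partner Ly96 averaged 12.9 and 4.89 CPM over the 12 libraries and Trem1, at most 1.13 CPM, was not tested. Neither Tlr4 nor Ly96 had an unadjusted p under 0.05.

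The messages known as targets were Rtn3, a reticulon known as a target of Rbm3 in neurons, Txn1, encoding thioredoxin, Rpa2, a subunit of the single-strand DNA-binding complex, and the clock gene Clock. None of the 4 had an unadjusted p under 0.05 over 12 libraries. Rpa2 was at 15.3, 15.0 and 15.3 CPM in MN and 20.8, 21.3 and 20.1 CPM in MT. It was the only one of the 4 whose male groups did not overlap, beside 5.8% of all genes tested above and 7.32% below. Its log2 fold change was 0.46 (SE 0.42) over 12 libraries. In the edgeR fit of the 6 male libraries it was 0.46 (SE 0.15, unadjusted p = 0.0096, adjusted p = 0.544). Rtn3, abundant at a mean of 1781 CPM, had a change of -0.01 (SE 0.46), Txn1 had -0.08 (SE 0.59) and Clock had -0.12 (SE 0.40). In FT versus FN these 4 lay between -0.59 for Rpa2 and 0.39 for Clock.

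**Figure D4:**
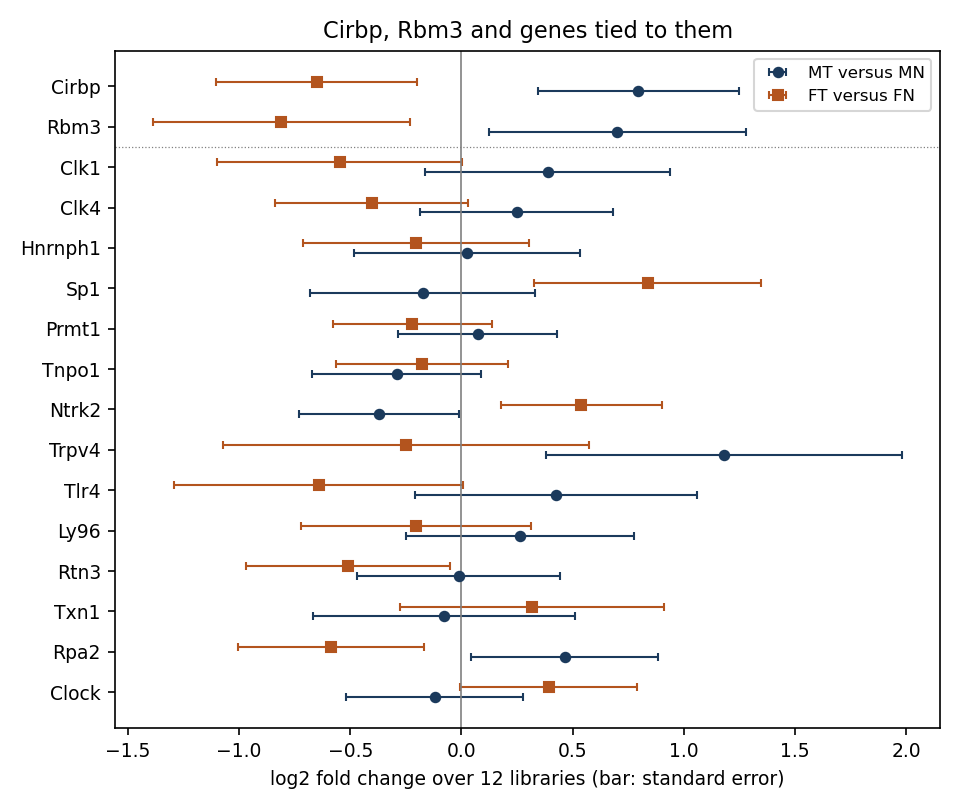
Log2 fold changes over 12 libraries for Cirbp and Rbm3 (above the dotted line) and the 14 tested regulators, upstream genes, receptors and targets, in MT versus MN (circles) and FT versus FN (squares), with standard errors as bars. Cirbp at 0.79 and Rbm3 at 0.70 lie right of 0 in males, and of the other genes only Trpv4, at 1.18 with an SE of 0.80, lies farther right in that comparison.

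Stress granule proteins did not differ between groups past the test. None of 6 had an unadjusted p under 0.05, and their median log2 fold change was -0.04 in MT versus MN and 0.11 in FT versus FN, beside medians of 0.007 and -0.06 over all genes tested. The most abundant of them, G3bp2 and Caprin1, had MT versus MN changes of -0.12 (SE 0.34) and -0.13 (SE 0.57). These 2 had all MT libraries below all MN libraries, beside 7.32% of all genes tested, and 0 of the 6 had them all above. Of the cold shock domain proteins, which share a name but not a domain with Cirbp and Rbm3, 6 of 8 were tested and 1 passed an unadjusted p of 0.05, namely Csda in FT versus FN, at 2.04 (SE 0.88, edgeR unadjusted p = 0.036, adjusted p = 0.994). Csda was at 40.5 CPM in FT replicate 2 and at 1.12 to 6.26 CPM in the other 11 libraries. Carhsp1, the most abundant, had an MT versus MN change of -0.17 (SE 0.51).

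Heat shock genes answer warming and unfolded protein, the opposite end of the temperature response, and all 20 listed were tested. Hspa1a, encoding an inducible chaperone, was at 32.2, 30.7 and 36.7 CPM in MN and at 73.8, 57.8 and 126 CPM in MT. Its log2 fold change was 1.38 (SE 0.52, edgeR unadjusted p = 0.019, adjusted p = 1). Its neighbour Hspa1b, a near-identical copy with which it may share reads, had 1.27 (SE 0.50, unadjusted p = 0.024 in edgeR) in MT versus MN and 1.18 (SE 0.49, unadjusted p = 0.03 in edgeR) in FT versus FN. With FT replicate 2 left out no listed gene had an unadjusted p under 0.05 in FT versus FN, beside 1.77% of all genes tested. The other 18 heat shock genes had no unadjusted p under 0.05 over the 12 libraries, and the list's median was -0.08 in MT versus MN. In the edgeR fit of the 6 male libraries Hsph1 (-0.55), Dnajb1 (0.34) and Hspb1 (0.31) also had an unadjusted p under 0.05, beside 6.92% of all genes tested. No listed gene had an adjusted p under 0.05 in that fit. The male groups did not overlap in 8 of the 20, with MT higher for Hspa1a, Hspa1b and Dnajb1 and lower for Hsph1, Hspd1, Chordc1, Stip1 and Fkbp4, beside 5.8% of all genes tested higher and 7.32% lower. Hsp90ab1, the most abundant, had -0.05 (SE 0.32), and Fkbp4, the next, had -0.16 (SE 0.32).

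Of 20 circadian clock genes 19 were tested. Gm129, also called Ciart and known as a repressor of the clock, was at 1.41, 0.897 and 0.574 CPM in MN and 3.90, 2.36 and 3.83 CPM in MT, a log2 fold change of 1.82 (SE 0.53, edgeR unadjusted p = 0.004, adjusted p = 1). The list's median was 0.29 in MT versus MN and -0.29 in FT versus FN. The MT libraries lay above all MN libraries in 6 of the 19 and below in none, beside 5.8% of all genes above. Cry2 and Bhlhe40, the most abundant, had MT versus MN changes of 0.31 (SE 0.54) and 0.70 (SE 0.49). The labels give no time of day for the harvest.

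The other genes named Rbm for an RNA-binding motif numbered 40, of which 34 were tested. None had an unadjusted p under 0.05 in MT versus MN over the 12 libraries, and their median log2 fold change was 0.08, beside 0.70 for Rbm3 itself. The MT libraries lay above all MN libraries in 3 of the 34, Rbm12b, Rbm22 and Rbm42, and below in Rbm19, beside 5.8% of all genes tested above and 7.32% below. In FT versus FN, Rbm22 had 1.41 (SE 0.57, edgeR unadjusted p = 0.027, adjusted p = 0.994), with 69.5 CPM in FT replicate 2 and at most 18.5 CPM elsewhere. The most abundant, Rbm39 and Rbm42, had MT versus MN changes of 0.20 (SE 0.46) and 0.11 (SE 0.41). FT replicate 2 was the lowest library for 14 of the 34 and FN replicate 2 was the highest for 3, beside 32.6% and 15.3% of all genes tested.

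The summed markers of the dissociation and of fibroblasts moved along with the step from MN to MT and FN. The 12 immediate early genes, which answer stimulation and tissue dissociation, summed to 1521 to 1956 CPM in MN, 2121 to 2653 in MT, 2650 to 2885 in FN and 1437 to 3472 in FT. All MT libraries lay above MN in 8 of the 12, beside 5.8% of all genes tested, and below in 0. All FN libraries lay above MN in 7, beside 9.59%. The 10 fibroblast markers summed to 159 to 221 CPM in MN, 251 to 445 in MT, 389 to 1235 in FN and 530 to 1136 in FT. Of the 9 tested, 1 had all MT libraries above MN, 1 had all below and 2 had all FN libraries above MN. The shares over all genes tested were 5.8%, 7.32% and 9.59%, so the fibroblast sum did not stand for each marker. The 14 macrophage markers ran from 32.7 to 51.5 CPM in MN, 30.3 to 298 in MT, 192 to 428 in FN and 204 to 535 in FT. The 10 satellite glia markers ran from 4571 to 5583 CPM in MN, 3890 to 5485 in MT, 8895 to 17407 in FN and 7256 to 19206 in FT, so the male groups overlapped in them and the female groups lay higher. The 10 Schwann cell markers ran from 1592 to 4503 CPM, the 10 endothelial markers from 229 to 1405 CPM and the 7 neutrophil markers in the counts from 0.562 to 194 CPM over the 12 libraries, and in all 3 the MN and MT libraries overlapped. No defining marker of these cells was at 0 in every library apart from 1 Schwann cell gene, 1810030J14Rik. The part of these cells and of the dissociation in the levels of Cirbp and Rbm3 was not tested.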

How the data were processed

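Bulk SMART-seq2 libraries of WGA-labelled TG neurons were sequenced in 12 samples (4 groups, 3 replicates each), grouped by their labels. The authors aligned reads to mm9 with TopHat2 and deposited whole HTSeq counts per gene symbol without normalization; the submitters' notes name CASAVA 1.8.2 and SAMtools, and the annotation, strand setting and other versions are not given in the sources used here. The 5 rows that name no gene, 76.3% to 88.8% of reads, were left out. The libraries held no molecular identifiers, so Poisson intervals cover counting error only.

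CPM used reads on genes, and RPKM the combined GENCODE M1 exon length. The test was that of edgeR 4.0.16 under R 4.3.3 (TMM, filterByExpr with minimum count 10 and minimum total 15, quasi-likelihood test, Benjamini-Hochberg adjustment over all genes tested) for 4 groups over 12 libraries. An unadjusted p under 0.05 defined calls in the lists. DESeq2 1.42.0, limma 3.58.1 voom with sample quality weights, other scalings, no filter, a replicate block and sets of libraries made up the 16 alternatives, of which the 11 on fold changes were run as 22 fits. The fitted test was not read for Cirbp and Rbm3. The fits were tested on simulated data. Likeness was Pearson's r of log2 CPM with a prior count of 2. Replicate numbers did not pair libraries, and no replicates were duplicates by a chi-square of their counts. The replicates are pools that the design text calls independent.

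The genes, lists and tests were chosen with earlier results of these data known. Named were Cirbp and Rbm3, all genes of the lists of regulators, upstream genes, receptors and targets, and in other lists those with an unadjusted p under 0.05 in MT versus MN or FT versus FN plus the 2 most abundant, apart from some genes that are not reported here; genes named for not overlapping between groups were chosen after their values were seen. Other work was done in Python 3.11.15 (pandas 2.3.3, numpy 2.4.6, scipy 1.17.1) and drawn in matplotlib 3.10.9.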

Additional observations from a re-analysis of the deposited data

How the results depend on the processing

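The MT versus MN changes of Cirbp and Rbm3 kept their direction in 22 of 22 other fits, at 0.76 to 0.86 and 0.55 to 0.84 on the log2 scale, which are also their ranges with 1 library left out. Most of these fits held all 6 male libraries, and the MN and MT ranges of both genes did not overlap. The direction could thus hardly turn, and nothing is read from its constancy. FT versus FN of Cirbp turned positive with limma-voom (0.26), over 10 libraries (0.35), over 9 libraries (0.21) and without FN replicate 2 (0.30), and that of Rbm3 over 10 libraries (0.12). With 1 library left out it ran from -0.98 to 0.30 for Cirbp and from -1.41 to -0.32 for Rbm3. FN versus MN of Cirbp was 0.73 with limma-voom and 0.67 over 10 and over 9 libraries (0.69 to 1.96 with 1 left out), and that of Rbm3 was 0.75, 0.66 and 0.66 (0.68 to 1.29). FT versus MT of Cirbp was -0.28 with all reads as library size, which moved the median of all genes to -0.40. The difference of changes of Cirbp was -0.58 with limma-voom, -0.45 over 10 libraries and -0.58 over 9 (-1.77 to -0.50 with 1 left out). Listed genes called in MT versus MN, 3 over 12 libraries, numbered 23 with limma-voom, 15 in males alone, 7 over 10 libraries and 16 over 9 (1 to 4 with 1 left out, fewest without MN replicate 1 or MT replicate 3). In FT versus FN, 4 were called, against 7 with DESeq2, 0 with all reads, 1 with the 2 groups alone and 10 over 10 libraries (0 to 19 with 1 left out, namely 2 without FN replicate 1, 12 without FN replicate 2, 19 without FT replicate 1, 0 without FT replicate 2 and 13 without FT replicate 3). The cause of these differences was not tested. Same-numbered libraries deviated together by correlations of -0.38 to 0.58, and 4 of 12 libraries correlated best with their own number, so the numbers were not taken to pair them. A replicate block gave 1 call in FT versus FN, beside 2.46% of all genes tested.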
